A study of Homo sapiens with 8 samples.

Results

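The 8 genes described here encode catalytic or regulatory subunits of the NADPH oxidases: NCF4, CYBA, NOX4, NOX5, NOXO1, NOXA1, DUOX1 and DUOX2. Each was found by its Ensembl identifier among 19957 promoter windows, 1 window per gene, in a table of sequencing reads counted in 2001 bp around annotated gene starts. NCF4 was chosen by its read counts, because it was 1 of 6 windows past the adjusted threshold of 0.05 when NuMA-depleted and control cells were compared by OGAP-seq, and the other 7 genes were added because they belong to the same family. What NCF4 does in that contrast is therefore a description, and no test of it is given as support.

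The cells were RPE1, an hTERT-immortalised human line from the retinal pigment epithelium. OGAP-seq is a pull-down of genomic DNA that reads oxidative damage along the genome, and input libraries are the matching control DNA. The question was how depletion of NuMA, a nuclear and spindle-pole protein that the submitters also call TDIF, changes such damage. There were 4 groups with 2 libraries each. WT OGAP and WT input came from cells without doxycycline, labelled wild type, and KD OGAP and KD input from NuMA (TDIF)-KD cells after doxycycline. Doxycycline itself and the depletion cannot be told apart in this design, and the labels do not say how doxycycline acts on NuMA or whether the cells were a single clone. No label says whether the libraries within a group are separate cultures, so the spread between libraries may be technical. The edgeR p-values rest mostly on that spread pooled over all windows, and little on that of the window itself. Depth was 368593 to 771138 promoter reads per library, with WT OGAP lowest. Expression markers of the retinal pigment epithelium cannot be read in DNA libraries, so the cell type was not checked.

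NADPH oxidases move electrons from NADPH across a membrane to oxygen and release superoxide or hydrogen peroxide, which can oxidise guanine in DNA. In the phagocyte enzyme a membrane core joins cytosolic adaptors and a Rac GTPase. NOX4 needs only the membrane partner, while NOX5 and the dual oxidases respond to calcium. The values below count DNA fragments in the windows under the identifiers of these genes and say nothing of how much enzyme the cells made.

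Only 4 of the 8 windows can be read as measurements, and only 2 of these, NCF4 and CYBA, lie at the start of the gene they are named for. The NCF4 window (hg38 chromosome 22, 36859987 to 36861987, plus strand) is centred 19 bp before the RefSeq start, and that of CYBA (chromosome 16, 88650153 to 88652153, minus strand) 100 bp before it. The NOX4 window (chromosome 11, 89497188 to 89499188, minus strand) lies inside the gene, 91369 bp downstream of the outermost RefSeq start. The RefSeq promoter entries of NOX4 have their starts at 89492219, 89491375 and 89490760, outside the window and downstream of it. The NOX5 window (chromosome 15, 68929524 to 68931524, plus strand) is centred 84171 bp upstream of the RefSeq start of NOX5. It contains the start of SPESP1, a sperm protein gene, and of the SPESP1-NOX5 read-through. Its values are those of that start and not of the NOX5 start in RefSeq.

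The other 4 windows were nearly empty, and each lies almost wholly under another window. NOXO1 encodes the organiser and NOXA1 the activator subunit of the NOX1 enzyme, and DUOX1 and DUOX2 encode the dual oxidases, which carry a peroxidase-like domain and supply hydrogen peroxide in thyroid and airway. The window of NOXO1 (chromosome 16, 1983193 to 1985193) shares all but 13 of its bases with that of GFER, that of NOXA1 (chromosome 9, 137422349 to 137424349) all but 86 with that of EXD3, and those of DUOX1 (chromosome 15, 45128932 to 45130932) and DUOX2 (45113345 to 45115345) all but 7 and 25 with those of their maturation factor genes DUOXA1 and DUOXA2. The NOXO1 window is centred on the GFER start, 2724 bp upstream of the RefSeq start of NOXO1, which lies outside the window. NOXO1 held 2 reads over all 8 libraries, NOXA1 16, DUOX2 1 and DUOX1 0. A count of 0 allows up to 3 reads of 4603655, or 0.652 in 1000000, from counting error alone.

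Across autosomal windows the median number of reads rose with the unshared bases. The median window held 4 reads over the 8 libraries where under 100 bases were unshared (1232 windows), 28 where 100 to under 500 were (1338 windows) and 267 where no other window overlapped (15413 windows). Per 100 unshared bases NOXA1 had 18.6 reads, NOXO1 15.4, DUOX2 4.0 and DUOX1 0, where the values of NOXO1, DUOX2 and DUOX1 rest on 2, 1 and 0 reads. NCF4 had 20.6 and CYBA 19.8. NOX4 had 6.15 and the NOX5 window 14.4, where windows without overlap had a median of 13.3. With 0 to 16 reads over 8 libraries, the near-empty windows fell under the count filter and did not enter the test of 17130 windows.

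**Figure D1:**
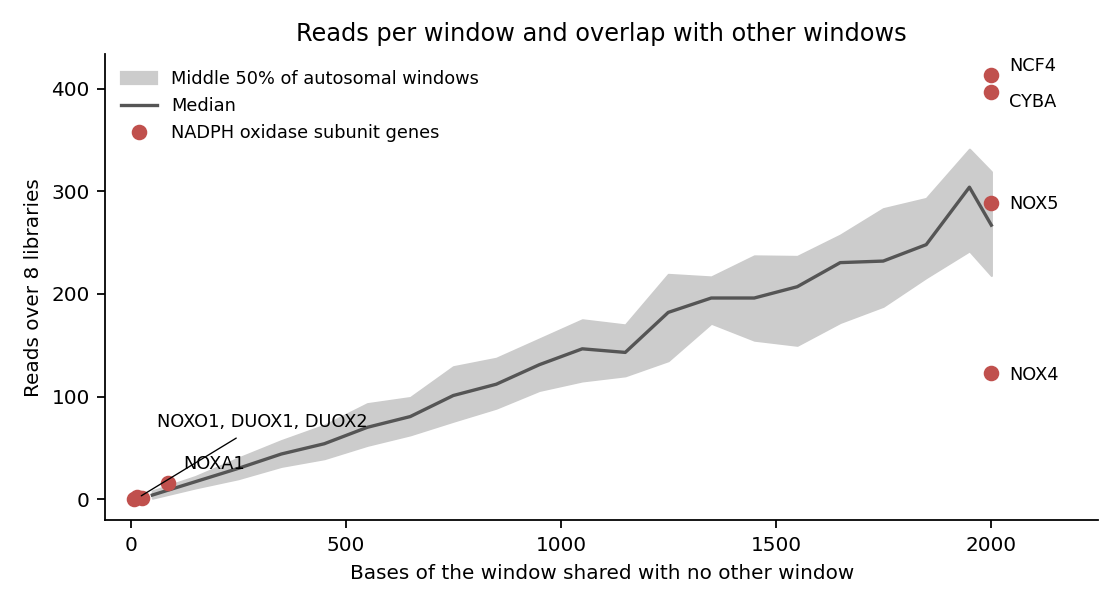
Reads summed over the 8 libraries (y axis) against the bases of the window that no other window shares (x axis), for autosomal windows in bins of 100 bases (line, median; band, middle 50%) and for the 8 NADPH oxidase subunit genes (red points). NOXO1, NOXA1, DUOX1 and DUOX2 sit at the empty left end with 0 to 16 reads, and NCF4 and CYBA stand above the band at 413 and 397.

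The sequences inside these windows show both situations. The first is the stretch of 250 bases upstream of CYBA, the second the same stretch upstream of SPESP1, which is what the NOX5 window covers, and the last ones are all the bases that separate each dual oxidase gene from its divergent partner. Capitals mark runs of 3 or more G or C, since guanine runs are where 8-oxoguanine is known to form readily. Sequences are from RefSeq (GRCh38.p14), written 5′ to 3′ on the strand of CYBA (chr16:88651054-88651303, minus), SPESP1 (chr15:68930275-68930524, plus), DUOX2 (chr15:45114173-45114325, minus) and DUOX1 (chr15:45129880-45129993, plus). The RefSeq promoter table matched 7 of the 8 genes, without NCF4.
CYBA: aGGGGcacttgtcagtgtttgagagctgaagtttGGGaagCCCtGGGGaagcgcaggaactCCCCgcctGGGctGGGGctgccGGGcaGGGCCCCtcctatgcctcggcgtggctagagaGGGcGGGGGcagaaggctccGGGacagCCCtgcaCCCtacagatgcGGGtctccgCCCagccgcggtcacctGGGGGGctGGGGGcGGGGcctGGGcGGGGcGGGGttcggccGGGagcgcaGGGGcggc
SPESP1: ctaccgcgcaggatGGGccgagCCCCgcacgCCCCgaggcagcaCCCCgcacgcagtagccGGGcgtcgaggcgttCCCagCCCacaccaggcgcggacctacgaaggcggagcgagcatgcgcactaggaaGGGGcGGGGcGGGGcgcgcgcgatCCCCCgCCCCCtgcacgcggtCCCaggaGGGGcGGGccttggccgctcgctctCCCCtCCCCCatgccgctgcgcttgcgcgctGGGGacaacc
DUOX2 to DUOXA2: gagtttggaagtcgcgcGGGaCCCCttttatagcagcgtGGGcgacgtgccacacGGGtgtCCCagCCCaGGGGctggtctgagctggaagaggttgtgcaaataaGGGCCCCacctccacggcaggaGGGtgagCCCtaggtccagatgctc
DUOX1 to DUOXA1: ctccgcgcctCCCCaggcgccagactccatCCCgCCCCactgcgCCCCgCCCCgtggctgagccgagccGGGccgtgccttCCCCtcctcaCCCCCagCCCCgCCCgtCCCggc

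The CYBA stretch holds 25 runs, 19 of G and 6 of C, and is 73.6% G or C. That of SPESP1 holds 18 runs and is 76.8% G or C. Over all 35116 entries of the promoter table the median was 11 runs and 58.0%, and 98.99% held at least 1 run, so that a run on its own does not set a promoter apart. Only 153 bp separate DUOX2 from DUOXA2 and 114 bp separate DUOX1 from DUOXA1, and both gaps lie whole in 2 windows at once.

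NCF4 is the gene of p40phox, a cytosolic adaptor that binds a phosphoinositide on phagosome membranes. Chosen by its KD against WT change in OGAP, it had the largest such change of the readable members, which is therefore no result. Its window had 17 and 18 reads from the WT pull-downs, 58 and 63 from the WT inputs, 83 and 59 from the KD pull-downs and 53 and 62 from the KD inputs. On the CPM scale (reads per 1000000 promoter reads after TMM scaling) these were 48.3 and 47.6 for the WT pull-downs, 78.7 and 81.7 for their inputs, 150.0 and 133.0 for the KD pull-downs and 76.3 and 94.4 for theirs. Both WT OGAP libraries lay below all 4 inputs and both KD OGAP libraries above all 4, a pattern held by 68 of 17130 tested windows (0.397%). Both KD OGAP libraries above both WT OGAP libraries was a commoner pattern, seen in 19.6% of windows. Both shares only describe NCF4, because these OGAP libraries chose it.

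From low to high, NCF4 stood at 47.9 ± 0.513 CPM (SD, n = 2) in the WT pull-down, 80.2 ± 2.17 in its input, 85.4 ± 12.8 in the KD input and 141 ± 11.6 in the KD pull-down. The inputs, which are neighbours in that order, overlapped. Among tested windows, the NCF4 level exceeded 41.4% in the WT pull-down and 99.8% in the KD pull-down, beside 86.8% and 94.4% in the WT and KD inputs. The window thus moved from the middle of the WT pull-down to near the top of the KD pull-down, while its place in input was high in both states. The pull-down values are those that chose NCF4, so this shift is a description.

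The log2 change of NCF4 between KD and WT in OGAP, the value that chose it, was 1.56 ± 0.33 (SE), a ratio of 2.95. Of the 17130 windows tested, 0.0175% were called higher in that contrast, 3 in number, and nothing is read from NCF4 being among them. It shared the highest adjusted p of the 6 windows past the threshold (0.0262, edgeR) with ENSG00000174145, and the next window outside, ENSG00000141086, was at -1.38 with 0.0727. NCF4 was no longer past the threshold without WT OGAP replicate 1 (1.57), WT OGAP replicate 2 (1.55), KD OGAP replicate 1 (1.47) or KD OGAP replicate 2 (1.64), nor with DESeq2 (1.53). Relative to input the NCF4 window was at -0.74 ± 0.34 in WT and 0.73 ± 0.28 in KD, and the difference of these was 1.47 ± 0.44. None of the 3 was past the threshold (adjusted p = 0.135, 0.21 and 0.324, edgeR). All of these share the OGAP libraries that chose NCF4.

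The contrast between the inputs uses no OGAP library, although the inputs entered the estimate of spread and the count filter in the fit that chose NCF4. KD against WT in input was 0.09 ± 0.28 (adjusted p = 0.999, edgeR), with a 95% interval of -0.48 to 0.65 on the log2 scale. No window of 17130 was called in input (0%) by edgeR, where 756 had an unadjusted p under 0.05, and none by DESeq2.

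**Figure D2:**
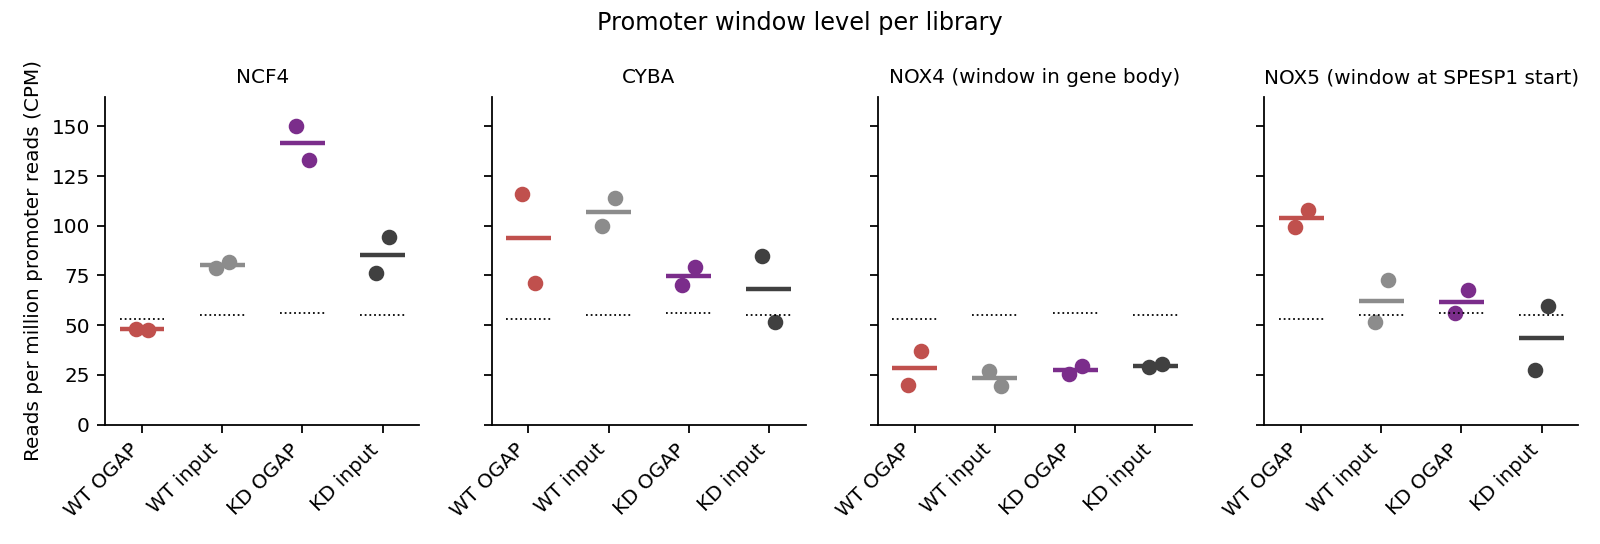
Level of the 4 readable windows in each library (y axis, CPM; points, libraries; bars, mean of 2; dotted lines, median of all tested windows in that group). NCF4 is lowest in WT OGAP at 48.3 and 47.6 and highest in KD OGAP at 150.0 and 133.0, while the inputs lie between 76.3 and 94.4.

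None of the windows around NCF4 on chromosome 22 was called between KD and WT in OGAP, where 0.035% of all tested windows were. Nothing is read from that count, and their difference from NCF4 was not tested. On one side lie PVALB (41.5 kb away), IFT27 (84.7 kb) and CACNG2 (157 kb), and on the other CSF2RB (52.6 kb), a cytokine receptor gene, CIMIP4 (147 kb) and MPST (159 kb). Between KD and WT in OGAP, PVALB was at -0.14 ± 0.32 (log2 ± SE), IFT27 at 0.37 ± 0.35 and CACNG2 at 0.01 ± 0.36. CSF2RB was at -0.24 ± 0.36, CIMIP4 at -0.03 ± 0.31 and MPST at -0.34 ± 0.66. The adjusted p of these windows ran from 0.739 (IFT27) to 0.994 (CACNG2) by edgeR. PVALB, the nearest, held 33 and 32 reads in WT OGAP and 49 and 32 in KD OGAP, which is 93.7 and 84.6 against 88.3 and 72.2 CPM. CSF2RB held 36 and 18 against 36 and 27 reads, or 102.0 and 47.6 against 64.9 and 60.9 CPM. The MPST window shares bases with another window and has only 550 of its own.

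**Figure D3:**
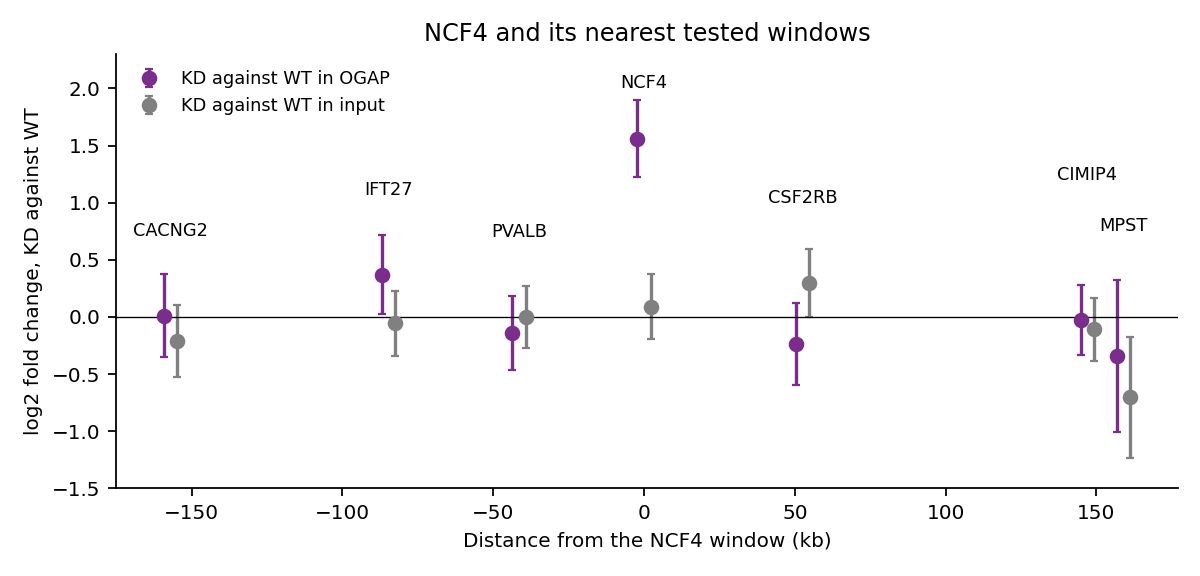
Log2 change between KD and WT (y axis; bars, SE) in OGAP (purple) and in input (grey) for NCF4 and the 3 nearest tested windows on each side, by distance in kb (x axis; the pair of points is set slightly apart). NCF4, which was chosen by this contrast, stands at 1.56 in OGAP, and the other 6 windows lie between -0.34 and 0.37.

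The 5 windows whose log2 CPM followed that of NCF4 most closely over the 8 libraries, among 8564 windows at or above the median abundance, had Pearson r of 0.919 to 0.949. They were ENSG00000175482 (0.949), ENSG00000188001 (0.936), ADAMTS8 (0.926), a secreted metalloproteinase gene, ACP7 (0.925) and TNNI3 (0.919), the cardiac troponin I gene. All points share the same 8 libraries and their depth, and the closest of so many windows will be close, so these values only describe likeness. TNNI3 had 14 and 19 reads from the WT pull-downs, 50 and 50 from the WT inputs, 57 and 48 from the KD pull-downs and 59 and 45 from the KD inputs. Its KD against WT change in OGAP was 1.22 ± 0.36, the nearest to that of NCF4 among the 5, and the smallest was 0.46 ± 0.39 in ENSG00000188001. For the other members r with NCF4 was -0.375 for CYBA, 0.00381 for NOX4 and -0.417 for the NOX5 window.

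CYBA encodes p22phox, the membrane partner that stabilises the catalytic NOX subunits. Its window had 41 and 27 reads from the WT pull-downs, 74 and 88 from the WT inputs, 39 and 35 from the KD pull-downs and 59 and 34 from the KD inputs. On the CPM scale these were 116 and 71.3, 100 and 114, 70.3 and 79.0, and 85.0 and 51.8. OGAP and input overlapped in both states, and so did KD and WT in OGAP, whereas both KD inputs lay below both WT inputs, as in 17.7% of tested windows. CYBA stood at 107 ± 9.75 CPM (SD, n = 2) in WT input, above 98.2% of tested windows, and at 68.4 ± 23.5 in KD input.

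No comparison of the 5 was past the threshold for CYBA. OGAP over input was -0.20 ± 0.31 in WT (adjusted p = 0.708, edgeR) and 0.12 ± 0.32 in KD (adjusted p = 0.917). KD against WT was -0.33 ± 0.33 in OGAP (adjusted p = 0.763) and -0.64 ± 0.29 in input (adjusted p = 0.999), and the KD effect on OGAP over input was 0.32 ± 0.44 (adjusted p = 0.891). Of the 4 readable members CYBA had the lowest unadjusted p in input, 0.0296 (edgeR), which is not a call. The log2 change in input was -1.05 without KD input replicate 1 or -0.34 without KD input replicate 2, against -0.64 with both.

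NOX4, a catalytic subunit that makes hydrogen peroxide without cytosolic activators, had the lowest level of the 4. Its window had 7 and 14 reads from the WT pull-downs, 20 and 15 from the WT inputs, 14 and 13 from the KD pull-downs and 20 and 20 from the KD inputs. As CPM these were 19.9 and 37.0, 27.1 and 19.5, 25.2 and 29.3, and 28.8 and 30.5. The OGAP and input libraries overlapped in both states, and so did KD and WT in OGAP, while both KD inputs of NOX4 stood slightly above both WT inputs, as in 17.3% of tested windows.

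The NOX4 level exceeded only 6.54% to 10.5% of tested windows in the 4 groups. OGAP over input was 0.30 ± 0.55 in WT (adjusted p = 0.759, edgeR) and -0.12 ± 0.52 in KD (adjusted p = 0.946). KD against WT was -0.08 ± 0.56 in OGAP (adjusted p = 0.974), with a 95% interval of -1.2 to 1.04, and 0.35 ± 0.50 in input (adjusted p = 0.999). At 7 to 14 reads per OGAP library a change of 2-fold in either direction lies inside the OGAP interval, so such a change is not excluded.

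NOX5 encodes a calcium-activated catalytic subunit that works without CYBA. The window under its identifier, at the SPESP1 start, had 35 and 41 reads from the WT pull-downs, 38 and 56 from the WT inputs, 31 and 30 from the KD pull-downs and 19 and 39 from the KD inputs. As CPM these were 99.4 and 108 for the WT pull-downs, 51.5 and 72.6 for their inputs, 55.9 and 67.7 for the KD pull-downs and 27.4 and 59.4 for theirs. Both WT OGAP libraries lay above both WT inputs, as in 28.5% of tested windows, and above both KD OGAP libraries, as in 19.9%.

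No NOX5 comparison passed. OGAP over input was 0.74 ± 0.34 in WT (adjusted p = 0.131, edgeR) and 0.51 ± 0.37 in KD (adjusted p = 0.601). KD against WT was -0.76 ± 0.36 in OGAP (adjusted p = 0.428) and -0.53 ± 0.35 in input (adjusted p = 0.999), and the KD effect on OGAP over input was -0.23 ± 0.50 (adjusted p = 0.935). The input value was -0.0653 without KD input replicate 1, -1.18 without KD input replicate 2 and -0.25 without WT input replicate 2. In KD the OGAP over input value was 0.04 without KD input replicate 1 and 1.15 without KD input replicate 2.

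Counted over the family, 0 of the 4 readable windows passed in OGAP over input in WT, where 13.7% of all windows did, and 0 in KD, where 0.736% did (0.63% higher and 0.105% lower). In KD against WT in OGAP 1 of 4 passed, NCF4 itself, which was chosen by that call. The count was thus fixed in advance, and nothing is read from it beside the 0.035% of all windows. In the KD effect on OGAP over input 0 of 4 passed, against 0.00584%. The median log2 change of the 4 was 0.05 for OGAP over input in WT, 0.31 in KD, -0.20 for KD against WT in OGAP and -0.22 in input, where all windows had medians of -0.02, 0.03, 0.01 and -0.01. The 4 windows differed in sign in each of the 5 comparisons. Changes of 2-fold and 4-fold in KD against WT in OGAP were simulated in windows at or above the median abundance, with a common spread for all windows. Of these, 13% and 88% were recovered, so that most 2-fold changes were missed. Windows of low level such as NOX4 were not among those changed, so the rates do not cover them.

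**Figure D4:**
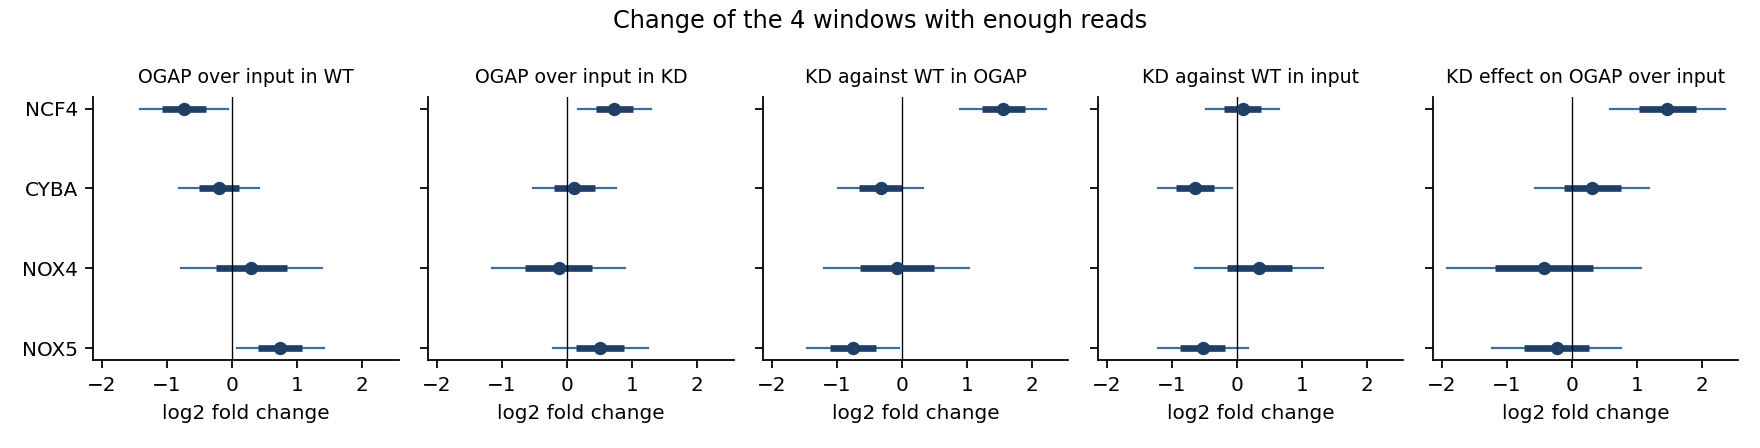
Log2 fold change (x axis; dots with thick bars, value ± SE; thin lines, 95% interval) of NCF4, CYBA, NOX4 and the NOX5 window in 5 comparisons. NCF4 in the panels that use OGAP libraries is shown as a description because KD against WT in OGAP chose it; in input it is at 0.09 with an interval of -0.48 to 0.65.

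Promoters richer in G and C tended to have lower OGAP over input in both states. Over 7334 named windows without overlap and with 1 RefSeq promoter entry, the log2 change of OGAP over input in WT had a Pearson r of -0.356 with the G and C content of the 250 upstream bases. It had one of -0.281 in KD. The windows come from the same 8 libraries and are not independent. By quartile of G and C content, the median was -0.40 in the top and 0.27 in the bottom in WT, and -0.16 and 0.19 in KD. The KD effect on OGAP over input had an r of 0.18, with medians of 0.21 in the top and -0.12 in the bottom quartile. KD against WT in OGAP, the contrast that chose NCF4, had an r of 0.0403, with medians of 0.11 and 0.03. KD against WT in input had an r of -0.254, with medians of -0.09 and 0.125. CYBA and the SPESP1 start exceed 86.9% and 92.5% of all promoter entries in G and C content. The part of G and C content in their values was not tested.

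The partners that the oxidases need were looked at in 3 lists of genes. Of 11 assembly partners and other isoforms, 10 had a named window and 8 were tested; DUOXA1 and DUOXA2 share their windows with the dual oxidases. OGAP over input in WT was higher in 3 of the 8, against 9.25% of all windows, and lower in 0, against 4.45%. The list median was 0.96 where that of all windows was -0.02. RAC1, the widely expressed GTPase that switches on the NOX1 and NOX2 enzymes, rose by 1.12 ± 0.33 (adjusted p = 0.0149, edgeR), with 40 and 41 reads in WT OGAP and 34 and 43 in the deeper WT input libraries. CYBC1, a chaperone for the phagocyte membrane core, rose by 0.96 ± 0.33 (adjusted p = 0.0339).

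NCF1, the organiser p47phox of the phagocyte enzyme, was higher by 2.27 ± 0.71 (adjusted p = 0.0217, edgeR) on 12 and 12 reads in WT OGAP and 8 and 2 in WT input. NCF1 has nearly identical pseudogene copies on chromosome 7, so its reads are uncertain. CYBB, the catalytic subunit of the phagocyte enzyme, was at 1.08 ± 0.48 (adjusted p = 0.121) and NOX3, the inner ear isoform, at 0.95 ± 0.45 (adjusted p = 0.144). RAC2, the Rac of blood cells, was at 0.03 ± 0.28 (adjusted p = 0.966). NOX1, the colon isoform, was at -0.57 ± 0.55 (adjusted p = 0.524) and RAC3, another Rac GTPase, at -0.71 ± 0.36 (adjusted p = 0.181). In KD none of the 8 passed, where 0.736% of all windows did, and the list median was 0.41 where that of all windows was 0.03.

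Of the 16 activating kinases, lipid kinases and scaffolds, 13 were tested, and OGAP over input in WT was higher in 2, against 9.25% of all windows, and lower in 2, against 4.45%. The list median was -0.11. PIK3R4, the regulatory subunit of the kinase that makes the lipid NCF4 binds, rose by 1.74 ± 0.34 (adjusted p = 0.00014, edgeR), with 40 and 53 reads in WT OGAP and 30 and 27 in WT input. PIK3C3, the catalytic subunit of that kinase, was at 0.18 ± 0.41 (adjusted p = 0.805, edgeR). HVCN1, the proton channel that balances the charge the oxidase moves, rose by 1.58 ± 0.37 (adjusted p = 0.00137). SH3PXD2A, an organiser-like scaffold, fell by 1.10 on the log2 scale (± 0.33, adjusted p = 0.0163). PIK3CG, a phosphoinositide kinase of blood cells, fell by 2.26 (± 0.60, adjusted p = 0.00556).

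PIK3CG was, like NCF4, lowest in both WT OGAP libraries, with 1 and 6 reads from the WT pull-downs, 36 and 34 from the WT inputs, 24 and 20 from the KD pull-downs and 28 and 20 from the KD inputs. Its KD against WT change in OGAP was 2.18 ± 0.62 and did not pass (adjusted p = 0.196, edgeR). The comparisons in WT and between KD and WT share the WT OGAP libraries. The share of all windows with both WT OGAP libraries lowest was not computed. NCF4 was chosen on these libraries, so the likeness of PIK3CG to NCF4 is only a description.

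Of 23 enzymes and channels that use superoxide or hydrogen peroxide, 18 were tested. The peroxiredoxin genes PRDX3 (1.15 ± 0.29, adjusted p = 0.00312, edgeR) and PRDX1 (0.999 ± 0.35, adjusted p = 0.0451) were called higher in OGAP over input in WT. These 2 of 18 stand beside 9.25% of all windows called higher. No gene of the list was called lower, against 4.45% of all windows, and the list median was 0.06. The other tested peroxiredoxin genes, PRDX2 and PRDX6, were at -0.29 ± 0.36 (adjusted p = 0.629, edgeR) and -1.01 ± 0.44 (adjusted p = 0.104). The dismutase genes SOD1 and SOD2 were at 0.89 ± 0.37 (adjusted p = 0.0935) and -0.03 ± 0.39 (adjusted p = 0.969), and catalase, CAT, at 0.07 ± 0.39 (adjusted p = 0.931).

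In KD against WT none of the 39 tested list genes passed in OGAP or in input, where 0.035% and 0% of all windows did. None passed in OGAP over input in KD either, where 0.736% of all windows did. The median there was -0.11 for the kinase and scaffold list and 0.10 for the enzyme and channel list. Nothing is read from these counts. Of the 9 list genes called in WT, PIK3R4 and HVCN1 kept the call in all 15 alternatives run. The calls of PIK3CG (-1.55) and PRDX3 (0.81) were lost without WT OGAP replicate 1, and so was that of SH3PXD2A (-0.80), which was also lost without either WT input library. RAC1, CYBC1 and PRDX1 lost theirs without any 1 of the 4 WT libraries, PRDX1 in 10 alternatives in all, and NCF1 without either WT OGAP library or without WT input replicate 2 (1.57). Single libraries also moved called values the other way: PIK3CG was at -3.94 without WT OGAP replicate 2 and NCF1 at 3.54 without WT input replicate 1. With DESeq2 the calls of RAC1, CYBC1, NCF1, SH3PXD2A and PRDX1 were lost.

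**Figure D5:**
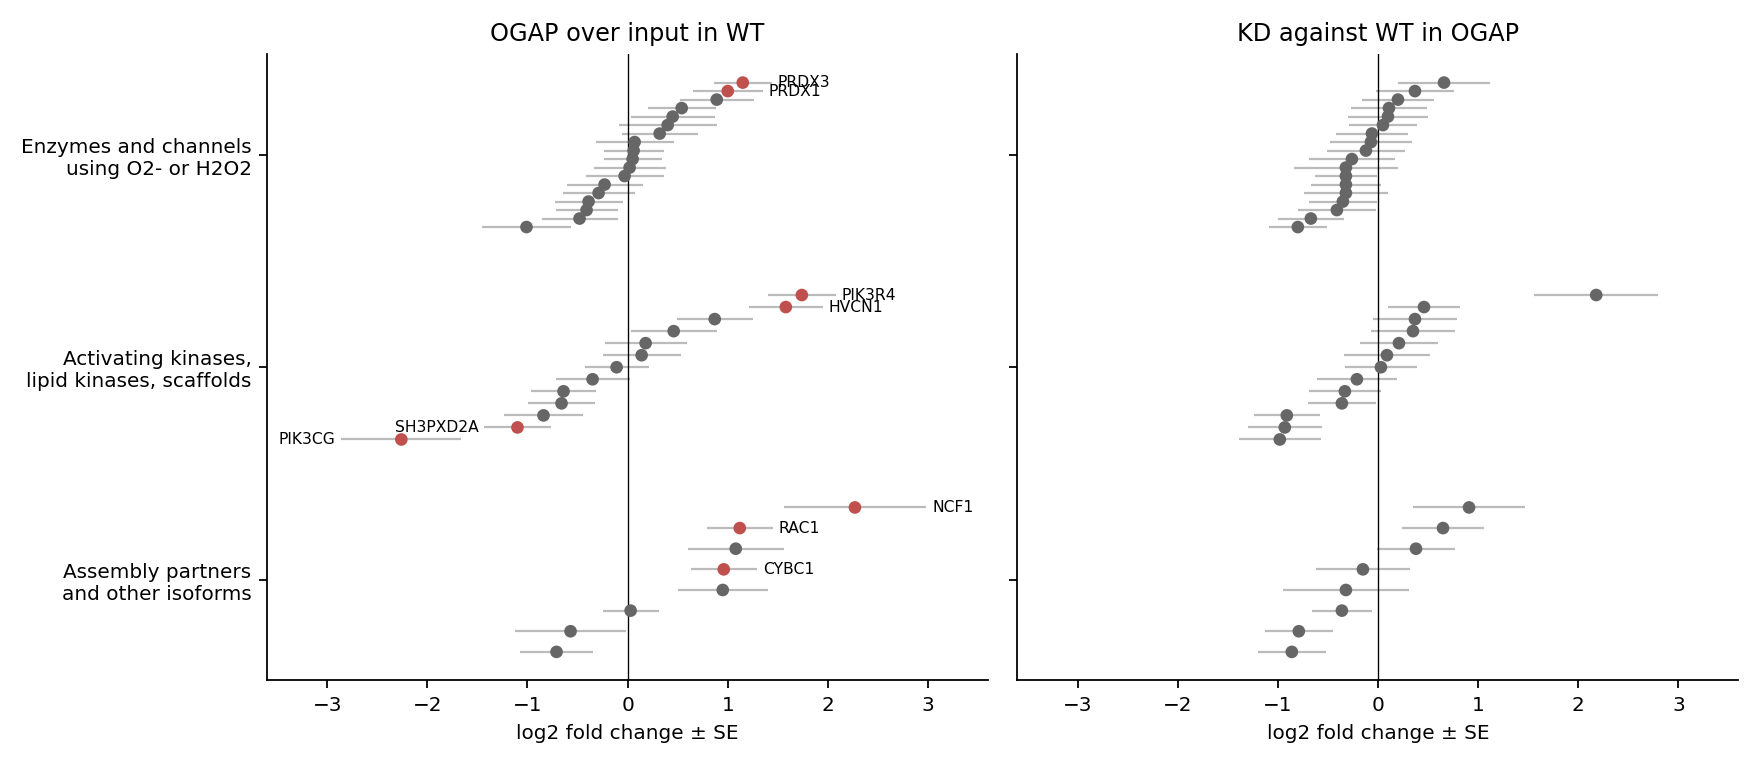
Log2 change ± SE (x axis) of each tested gene of the 3 lists, sorted within a list, for OGAP over input in WT (left) and KD against WT in OGAP (right); red points, with their names, mark genes past the adjusted threshold of 0.05. The 9 red points are all in the left panel, from PIK3CG at -2.26 to NCF1 at 2.27, and the point at 2.18 on the right is PIK3CG, which did not pass.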

How the data were processed

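The members and lists were chosen with earlier results of these data known. The authors deposited whole-number read counts per 2001 bp promoter window for 8 libraries of RPE1 DNA, per the file headers. The submitters' processing notes list hg38 and, without order or role, featureCounts, MACS2, bedtools and BWA 0.7.17-r1188. Members were found by Ensembl identifier. Other windows took the symbol of a RefSeq protein-coding gene when a single such gene started no more than 500 bp from the window's middle, on its strand (14908 windows, 74.7%). Overlapping windows numbered 3741, and 452 windows had no read.

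The quasi-likelihood test of edgeR 4.0.16 (R 4.3.3; TMM, filterByExpr) was fitted to the counts over 4 group means and all 8 libraries, which kept 17130 windows; library totals were 368593 to 771138. Adjusted p is Benjamini-Hochberg over all tested windows, with a threshold of 0.05. The SE was back-calculated from the F value. The spread of a window was drawn strongly to that of all windows (98.4 prior degrees of freedom), so its p says little of how its own libraries agree. The test was checked on simulated data with 200 changed windows at or above the median abundance. Named genes were the members, list genes past the threshold in any comparison, the 3 tested windows on each side of NCF4, and the 5 windows most correlated with it. CYBB, NOX1, NOX3, RAC2, RAC3, PIK3C3, PRDX2, PRDX6, SOD1, SOD2 and CAT were added after their values were seen. Alternatives were other scaling, no count filter, DESeq2 1.42.0, a robust prior, only the libraries compared, a replicate block, and each library left out. Coverage profiles summed over genes were not used here.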

Additional observations from a re-analysis of the deposited data

Results flagged for a closer look

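NCF4 is listed because its OGAP libraries lay on opposite sides of input in the 2 states, although neither difference passed (adjusted p = 0.135 in WT and 0.21 in KD, edgeR). Both WT OGAP libraries (48.3 and 47.6 CPM) lay below both WT inputs (78.7 and 81.7), and both KD OGAP libraries (150.0 and 133.0) above both KD inputs (76.3 and 94.4). The difference between the states was 1.47 on the log2 scale. It did not pass either (adjusted p = 0.324, edgeR), and NCF4 was chosen on the same OGAP libraries.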

How the results depend on the processing

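The log2 changes of the 4 readable members gave 296 values under the alternatives. Of these, 281 kept their direction and their side of the threshold, 5 kept the direction and lost the call, and 10 changed sign. The count of members past the threshold stayed at 0 in 4 of the comparisons under every alternative run. In KD against WT in OGAP it was 1, fell to 0 with DESeq2, and ranged from 0 to 1 when a library was left out. None of the values that changed sign was called.

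Leaving out 1 library at a time gave these ranges. NCF4 in KD against WT in input ran from -0.0716 to 0.24. CYBA ran from -0.60 to 0.12 for OGAP over input in WT, from -0.20 to 0.51 in KD, from -0.65 to 0.0628 for KD against WT in OGAP, and from -0.0048 to 0.72 for the KD effect on OGAP over input. NOX4 ran from -0.22 to 0.65 in WT, from -0.44 to 0.45 for KD against WT in OGAP, with 0.038 without KD OGAP replicate 1, and from -0.79 to 0.0958 for the KD effect. The NOX5 window ran from -0.69 to 0.42 for the KD effect and from -1.18 to -0.0653 for KD against WT in input. For KD against WT in OGAP near NCF4, CACNG2 ran from -0.23 to 0.29, CSF2RB from -0.70 to 0.41, CIMIP4 from -0.26 to 0.27 and MPST from -1.01 to 0.39. CACNG2 was also at -0.0177 with DESeq2-style size factors and -0.0226 with DESeq2, and CIMIP4 at 0.0268 with upper quartile scaling. The cause of these changes was not tested.

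Over all windows, DESeq2 called 884 in OGAP over input in WT, where edgeR called 2346, and 40 in KD, where edgeR called 126. Without single libraries these ran down to 890 and 8. In KD against WT in OGAP the 6 calls became 12 without the count filter, 10 with a robust prior, 11 with only the libraries compared and 0 with DESeq2. Leaving out KD OGAP replicate 1 gave 0, and leaving out replicate 2 of that group gave 11.

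With a replicate block over all 8 libraries, 1 member was past the threshold in KD against WT in OGAP and 0 in the others, as without it. Of the named calls, that of PRDX1 in WT was lost with the block (adjusted p = 0.0524, edgeR). Deviations of libraries with the same number correlated at -0.0392 to 0.0246 across groups. With a median of 17 to 38 reads per window, counting noise can hide a shared culture, so this does not settle whether they were paired. The KD effect on OGAP over input has no version with only the libraries compared, because it uses all 8. Without the count filter NOXA1, NOXO1 and DUOX2 entered the edgeR test and none passed in the 5 comparisons. Depth limits NOX4 most, at 7 to 20 reads per library.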
